A study of Mus musculus with 2 samples.

Results

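The glycolysis and lactate genes described here are Hk1, Hk2, Pfkp, Pfkfb3, Aldoa, Aldoc, Pgk1, Pkm, Ldha and Ldhb. They were chosen by gene symbol, which gave 11 rows for 10 symbols among the 31053 gene rows of the count tables, because Aldoa has 2 rows. Their transcripts were counted in single cells of the hippocampus from untreated Mr1-/- mice and Mr1+/+ mice, all 7 months old, with 1 library per genotype. Mr1 encodes an MHC class I-like protein that presents microbial vitamin B metabolites to MAIT cells. Live nucleated cells (negative for DAPI, positive for Draq5) were sorted, so the cell mix depends on dissociation and sorting, and no source used here says how many mice each library pooled. With 1 library per genotype no difference has a replicate check, no test was made, and all intervals below cover counting error only.

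Glycolysis splits glucose into pyruvate. Hexokinases (Hk1, Hk2) trap glucose in the cell as glucose 6-phosphate, and phosphofructokinases (Pfkp and its relatives) commit the sugar to the pathway. Pfkfb3 makes fructose 2,6-bisphosphate, which activates phosphofructokinase. Aldolases (Aldoa, Aldoc) cleave the sugar, phosphoglycerate kinase (Pgk1) and pyruvate kinase (Pkm) make ATP, and lactate dehydrogenase interconverts pyruvate and lactate through a muscle-type subunit (Ldha) and a heart-type subunit (Ldhb). In the brain, Aldoc, also known as zebrin, is a classic astrocyte enzyme of the forebrain, and exchange of lactate between cells is a long-studied feature of brain energy supply.

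The Mr1-/- library held 5347 barcodes with 18349132 unique molecular identifiers (UMIs, each standing for 1 captured transcript molecule) and the Mr1+/+ library 6410 barcodes with 23244575 UMIs. Mr1 itself had 2 UMIs in the Mr1-/- library, against 139 in the Mr1+/+ library, and 44 barcodes occurred in both libraries. Clusters were named from marker genes, and "-like" means only that a cluster carries those markers. At least 50 cells in each library were found in the microglia-like (786 Mr1-/- and 730 Mr1+/+ cells), endothelial-like (1450 and 1311), mural-like (971 and 965), oligodendrocyte-like (694 and 1063), astrocyte-like (477 and 956), neuron-like (166 and 275) and neuroblast-like (54 and 66) classes. A cluster led by Anln, Enpp6 and Serpinb1a (264 and 373 cells) carried all 10 oligodendrocyte markers but stayed unnamed by the naming rule, and is called the Anln-led cluster. Most neuron-like cells (159 and 258) lay in a cluster with Reln and Ndnf among its leading genes. The others (7 and 17) lay in a cluster led by Cck, Nrgn and Sncb. Levels of the neuron-like class therefore mainly describe the Reln-led cluster and not hippocampal neurons in general. Levels are UMIs per 1000000 UMIs of the class (CPM), so a ratio compares the same gene between libraries or classes, and 2 genes are set side by side only as shares of their summed UMIs. Orders of classes are over these 8 groups of cells and go by the mean of both libraries.

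The promoter windows of Hk2, Pfkfb3, Ldha and Ldhb are shown because Hk2 and Pfkfb3 were the members higher in Mr1-/- microglia-like cells, and Ldha and Ldhb encode the subunits of lactate dehydrogenase, whose shares are compared below. They are RefSeq sequences on GRCm38.p6, from 250 bases before to 50 bases after an annotated start, 5′ to 3′ on the gene's strand. Capitals mark ACGTG or GCGTG on either strand, the core of the site bound by hypoxia-inducible factors, and CACGTG counts as 2 overlapping matches. Hk2 is at chr6:82774405-82774704 (minus strand), Pfkfb3 at chr2:11553880-11554179 and chr2:11502041-11502340 (minus strand), Ldha at chr7:46845554-46845853 (plus strand) and Ldhb at chr6:142507908-142508207 (minus strand).
Hk2: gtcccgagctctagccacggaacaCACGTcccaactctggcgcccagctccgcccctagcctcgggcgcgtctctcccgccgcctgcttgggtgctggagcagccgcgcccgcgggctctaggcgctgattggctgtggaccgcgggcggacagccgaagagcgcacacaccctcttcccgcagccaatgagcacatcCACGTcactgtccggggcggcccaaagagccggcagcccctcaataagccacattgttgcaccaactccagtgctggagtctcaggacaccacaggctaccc
Pfkfb3, first start: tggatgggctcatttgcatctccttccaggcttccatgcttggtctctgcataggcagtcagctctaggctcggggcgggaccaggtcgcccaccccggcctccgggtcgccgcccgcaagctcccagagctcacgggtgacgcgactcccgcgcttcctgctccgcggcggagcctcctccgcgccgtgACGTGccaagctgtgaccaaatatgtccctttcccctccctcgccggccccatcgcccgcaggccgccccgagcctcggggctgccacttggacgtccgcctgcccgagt
Pfkfb3, second start: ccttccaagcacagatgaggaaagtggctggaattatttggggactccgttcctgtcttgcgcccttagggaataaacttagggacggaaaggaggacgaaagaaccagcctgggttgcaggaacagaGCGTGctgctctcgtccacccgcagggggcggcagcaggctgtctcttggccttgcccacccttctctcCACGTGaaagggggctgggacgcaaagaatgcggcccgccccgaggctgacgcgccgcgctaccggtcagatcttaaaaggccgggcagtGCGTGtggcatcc
Ldha: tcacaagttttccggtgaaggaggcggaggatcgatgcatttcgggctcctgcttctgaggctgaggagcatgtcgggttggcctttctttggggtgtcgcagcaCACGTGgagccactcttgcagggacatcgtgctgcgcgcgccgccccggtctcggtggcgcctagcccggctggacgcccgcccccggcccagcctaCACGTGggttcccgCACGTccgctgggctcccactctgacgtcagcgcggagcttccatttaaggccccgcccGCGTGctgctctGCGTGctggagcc
Ldhb: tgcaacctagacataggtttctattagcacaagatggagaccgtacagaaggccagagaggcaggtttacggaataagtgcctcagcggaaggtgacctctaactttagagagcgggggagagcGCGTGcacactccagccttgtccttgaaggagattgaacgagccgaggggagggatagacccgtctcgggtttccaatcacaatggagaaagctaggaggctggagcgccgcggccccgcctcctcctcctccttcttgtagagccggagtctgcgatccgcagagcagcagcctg

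Hk2 held 2 matches, the Pfkfb3 windows 1 and 4, this Ldha window 7 and Ldhb 1. Of all 32851 promoter windows, 20.6% held 2 or more matches and 3.86% held 4 or more. The start of the Ldha window shown lies 35 bases upstream of the nearest transcript start in GENCODE M21, and its last bases did not match the opening of a GENCODE transcript, unlike those of the other windows. A further Ldha start, which coincides with a GENCODE start and is not shown, held 2. All 10 members had a window, and 14 of their 17 windows (82.4%) held a match, against 43.8% of 32851 promoter windows of the same length. These windows were not matched for GC content or for the number of windows per gene. They are not all separate, since 2 Aldoa windows overlap and hold the same match. A match describes letters only.

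Hexokinase was divided between microglia-like cells and all others. Hk2, the inducible hexokinase (chr6:82725025-82774454, minus strand, GENCODE M21 on mm10), stood at 338 CPM (1353 UMIs) in Mr1-/- microglia-like cells and 236 CPM (916 UMIs) in Mr1+/+ ones. In no other compared class did it exceed 8.05 CPM. Microglia-like cells gave 99.0% of the Hk2 UMIs of the Mr1-/- library and 97.6% of those of the Mr1+/+ library, while they held 23.1% and 18.1% of all UMIs. In endothelial-like cells a Hk2 UMI was seen in 1 of 1450 Mr1-/- cells and in 0 of 1311 Mr1+/+ cells, where a floor of 3 counts allows a share of cells with a UMI of up to 0.229% at this depth. Median depth was 2328 and 2524 UMIs per endothelial-like cell and 3678 and 3953 UMIs per microglia-like cell. The Anln-led cluster had 0 Hk2 UMIs in both libraries. Below microglia-like cells, the intervals of neighbouring classes overlapped all along the order of Hk2 levels.

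Hk1, the hexokinase of most brain cells (chr10:62268855-62379908, minus strand), ran the other way. It was highest in neuron-like cells (76.1 CPM in the Mr1-/- and 78.6 CPM in the Mr1+/+ library), followed by astrocyte-like cells (60.1 and 71.7 CPM), mural-like cells (55.8 and 59.1 CPM) and endothelial-like cells (52.6 and 47.8 CPM), with few UMIs in neuroblast-like cells (24.2 and 60.9 CPM). It was low in microglia-like cells (16.5 and 16.8 CPM), in the Anln-led cluster (13.2 and 16.9 CPM) and in oligodendrocyte-like cells (12.7 and 15.5 CPM). Every pair of neighbours in that order had overlapping intervals, although the ends did not. Hk1 made up 4.65% of the Hk1 and Hk2 UMIs of Mr1-/- microglia-like cells and 6.63% in Mr1+/+ ones (difference -1.97 percentage points, 95% interval -3.96 to -0.120). In the endothelial-like, mural-like, oligodendrocyte-like, astrocyte-like and neuron-like classes and the Anln-led cluster the Hk1 share ran from 94.6% to 100%. Summed, Hk1 and Hk2 reached 355 CPM in Mr1-/- and 253 CPM in Mr1+/+ microglia-like cells, against 77.7 and 78.6 CPM in neuron-like cells and 13.4 and 16.2 CPM in oligodendrocyte-like cells. Microglia-like cells had the most hexokinase UMIs per UMI of any compared class, nearly all from 1 gene.

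**Figure D1:**
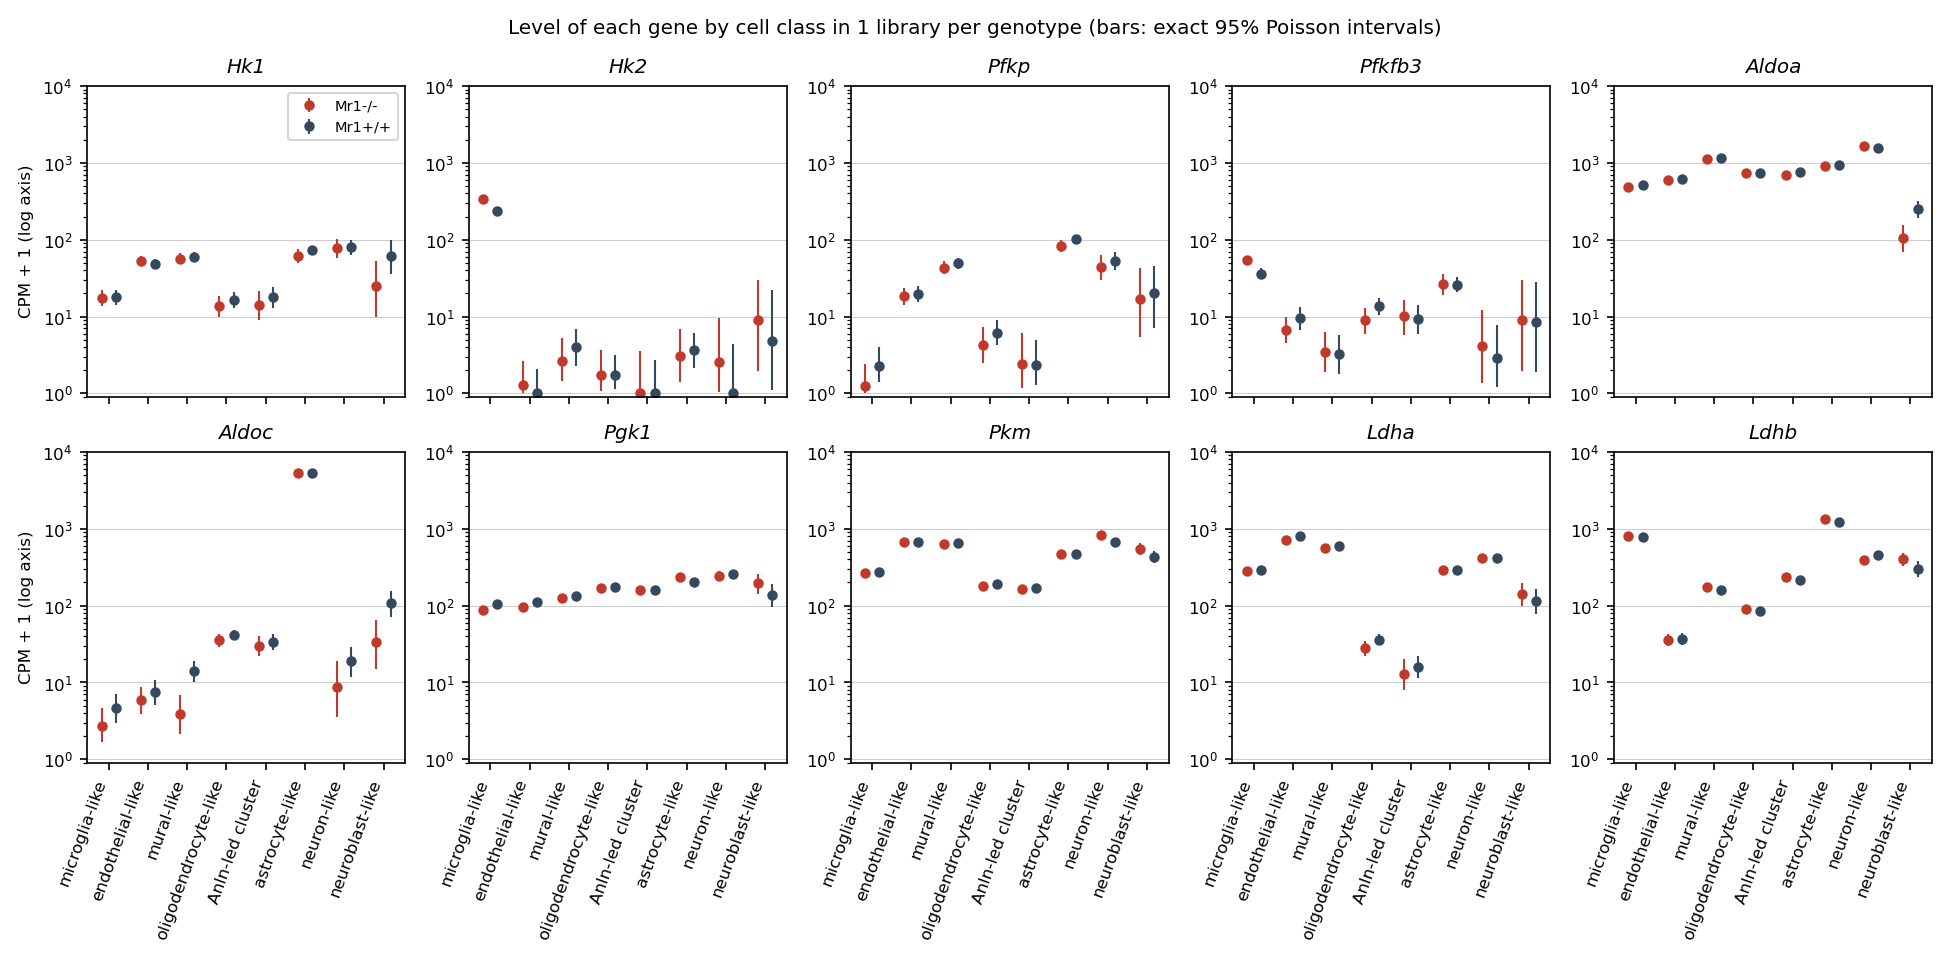
Level of each of the 10 genes (CPM + 1, log axis) in 8 cell classes, with the Mr1-/- library in red left of the Mr1+/+ library in blue and bars for exact 95% Poisson intervals. Hk2 stands at 338 and 236 CPM in microglia-like cells and near 0 elsewhere, and Aldoc at 5319 and 5332 CPM in astrocyte-like cells.

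The Hk2 difference within microglia-like cells was a ratio of 1.43 (Mr1-/- over Mr1+/+, 95% interval 1.31 to 1.56), and 40 of the 6043 genes tested in that class had a larger one. A Hk2 UMI was found in 66.8% of Mr1-/- microglia-like cells (exact 95% binomial interval 63.4 to 70.1) and in 53.8% of Mr1+/+ ones (50.1 to 57.5). With each cell thinned to 1500 UMIs, which left out 47 Mr1-/- and 101 Mr1+/+ shallower cells, the shares were 37.9% and 26.1%. Cells with 5 or more Hk2 UMIs made up 9.03% of microglia-like cells in the Mr1-/- library, against 5.62% in the Mr1+/+ library. The median microglia-like cell had 1 Hk2 UMI in both libraries.

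Both larger microglia-like clusters showed the Hk2 difference. In the cluster led by Tmem119, Gpr34 and Fcrls, genes of resting microglia, Hk2 was at 306 CPM in Mr1-/- and 213 CPM in Mr1+/+ cells (ratio 1.44, 1.23 to 1.68). In the cluster led by Ccl4, Lyz2 and Cx3cr1, with the chemokine genes Ccl4 and Ccl3 among its leading genes, it was at 355 and 250 CPM (ratio 1.42, 1.28 to 1.58). A shallow cluster led by Lyz2 held 13 Mr1-/- and 17 Mr1+/+ Hk2 UMIs. In the microglia-like class the 5 neutrophil markers summed to 135 CPM in the Mr1-/- and 20.1 CPM in the Mr1+/+ library, with 0 and 2 of them undetected, and the 8 border macrophage markers to 199 and 130 CPM, with none undetected. Without cells that carried 3 or more markers of another class the Hk2 ratio was 1.42.

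**Figure D2:**
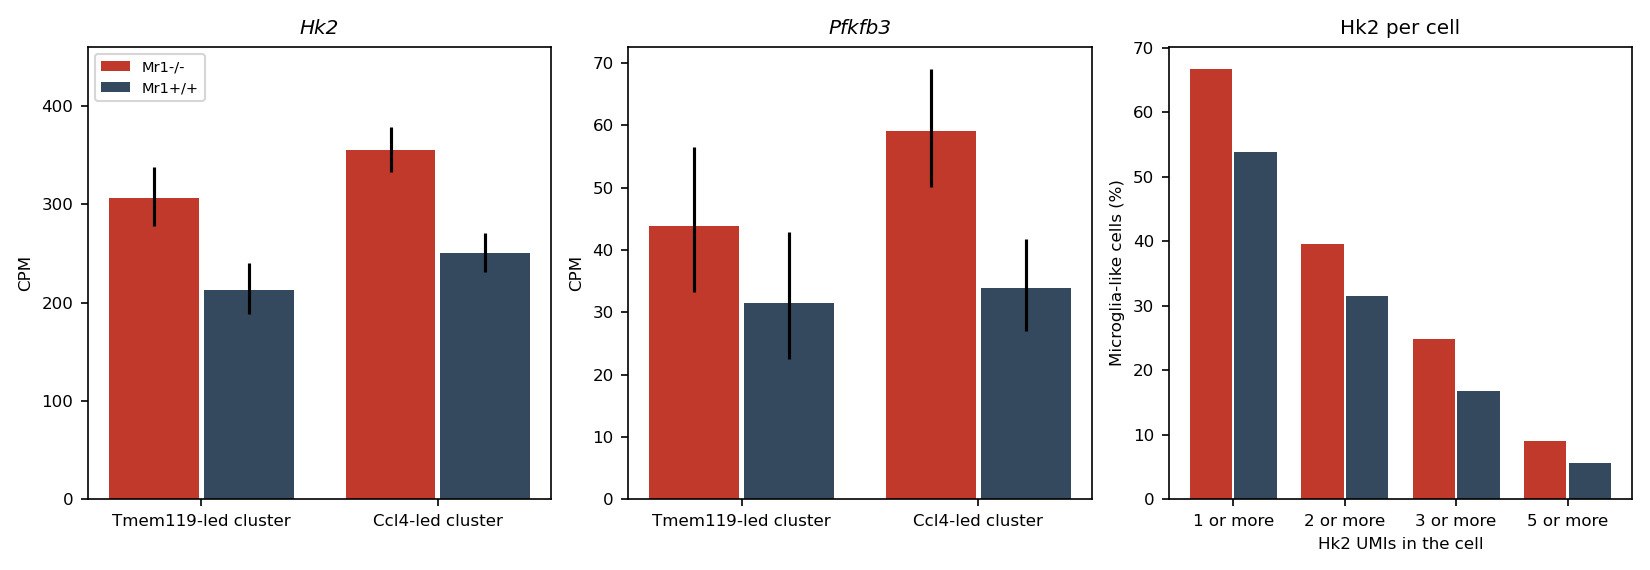
Hk2 and Pfkfb3 levels (CPM, bars from 0, exact 95% Poisson intervals) in the 2 larger microglia-like clusters, and the share of microglia-like cells with at least 1, 2, 3 or 5 Hk2 UMIs, with Mr1-/- in red left of Mr1+/+ in blue. Hk2 is at 306 against 213 CPM in the Tmem119-led and at 355 against 250 CPM in the Ccl4-led cluster.

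Pfkfb3, the phosphofructokinase activator (chr2:11471433-11554077, minus strand), was also highest in microglia-like cells, at 53.5 CPM (214 UMIs) in the Mr1-/- and 35.1 CPM (136 UMIs) in the Mr1+/+ library (ratio 1.52, 1.22 to 1.90). Of the 6043 genes tested there, 25 had a larger ratio. Of Mr1-/- microglia-like cells 20.5% had a UMI, against 15.2% of Mr1+/+ ones, and after thinning the shares were 8.53% and 6.68%, with overlapping intervals. With each cell weighing the same the ratio was 1.09, inside the fold rule given below. By cluster the ratio was 1.39 (0.916 to 2.13) in the Tmem119-led and 1.74 (1.33 to 2.30) in the Ccl4-led cells, while the shallow Lyz2-led cluster had 1 Mr1-/- and 11 Mr1+/+ UMIs. Of all Pfkfb UMIs, Pfkfb3 gave 54.3% in Mr1-/- and 44.3% in Mr1+/+ microglia-like cells (difference 10.0 points, 2.55 to 17.3). Astrocyte-like cells came second, at 25.3 and 24.99 CPM. In the Mr1+/+ library their interval (19.7 to 31.3 CPM) overlapped that of microglia-like cells (29.5 to 41.5 CPM). The lowest levels were in neuron-like cells (2 UMIs in each library, 3.11 and 1.87 CPM) and mural-like cells (2.46 and 2.22 CPM), whose intervals overlapped.

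Pfkp, the platelet-type phosphofructokinase (chr13:6579768-6648777, minus strand), was nearly missing from microglia-like cells, the class with the most Pfkfb3. They held 1 Pfkp UMI in the Mr1-/- and 5 in the Mr1+/+ library, and 93.6% and 93.4% of their phosphofructokinase UMIs came from Pfkl, the liver-type gene. Pfkp was highest in astrocyte-like cells, at 81.3 CPM in Mr1-/- and 102 CPM in Mr1+/+ cells (ratio 0.795, 0.638 to 0.985), next to neuron-like cells (43.5 and 52.4 CPM) and mural-like cells (42.2 and 48.4 CPM). The muscle-type gene Pfkm gave most phosphofructokinase UMIs of astrocyte-like cells, 63.1% in Mr1-/- and 57.8% in Mr1+/+ (difference 5.25 points, 0.118 to 10.3), and Pfkp gave 23.4% and 27.4%. In mural-like cells Pfkl gave 52.0% and 49.6% and Pfkp 30.9% and 33.7%. Pfkp overlaps Pitrm1 on the other strand, which had 329 and 399 UMIs against 383 and 681 for Pfkp, and no source used here says whether counting used strand.

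The aldolases also divided by class, although Aldoa stayed abundant in the cells with the most Aldoc. Aldoc (chr11:78322968-78327781, plus strand) stood at 5319 CPM (7790 UMIs) in Mr1-/- and 5332 CPM (16214 UMIs) in Mr1+/+ astrocyte-like cells, a ratio of 0.998 (0.971 to 1.03). Those cells gave 96.1% of all Aldoc UMIs of the Mr1-/- library and 96.5% of those of the Mr1+/+ library. After thinning to 1500 UMIs, 99.6% and 99.9% of astrocyte-like cells still showed one. The level was 34.5 and 40.4 CPM in oligodendrocyte-like cells and 1.75 and 3.61 CPM in microglia-like cells, and 11.2% and 11.9% of the first and 0.891% and 1.78% of the second had a UMI. In mural-like cells 7 Mr1-/- and 35 Mr1+/+ Aldoc UMIs were counted (2.87 and 12.9 CPM, ratio 0.222, 0.0832 to 0.507), below the minimum level for the fold rule. Of the 35 Mr1+/+ UMIs, 12 lay in 1 cell and 21 in 5 cells, and with at most 5% mitochondrial UMIs per cell the ratio was 0.467. In the same cells the 10 astrocyte markers summed to 1311 and 1192 CPM, with 2 and 1 undetected. Their part in that result was not tested.

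Aldoa, the aldolase of most tissues (chr7:126795234-126800751, minus strand), was abundant in all compared classes except the neuroblast-like one. It led in neuron-like cells (1680.5 CPM in Mr1-/- and 1579 CPM in Mr1+/+ cells) and mural-like cells (1118 and 1163 CPM), and then came astrocyte-like cells (914 and 940.1 CPM), oligodendrocyte-like cells (747 and 735 CPM), the Anln-led cluster (701 and 754 CPM), endothelial-like cells (599.9 and 616 CPM) and microglia-like cells (484 and 519 CPM). The oligodendrocyte-like class and the Anln-led cluster were the only neighbours whose intervals overlapped. Neuroblast-like cells were lowest, at 104.7 CPM (26 UMIs) in Mr1-/- and 247 CPM (65 UMIs) in Mr1+/+ cells. Aldoa gave 14.7% of the aldolase UMIs of Mr1-/- and 14.99% of those of Mr1+/+ astrocyte-like cells, and 94.8% to 99.7% in the other 6 groups of cells outside neuroblast-like cells. The second Aldoa row, a neighbouring gene model on the same strand, had 18 and 24 UMIs in all and was kept apart.

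Mural-like cells were not uniform for Aldoa, as their larger clusters show. A smaller mural-like cluster, led by Ifitm1, Casq2 and Il34 (124 Mr1-/- and 116 Mr1+/+ cells), held 301 Aldoa UMIs in each library and is not compared here. The cluster led by Kcnj8, Vtn and Atp13a5, genes of pericytes, had 1653 CPM in Mr1-/- and 1761 CPM in Mr1+/+ cells. The cluster led by Tagln, Acta2 and Myh11, genes of smooth muscle, had 731 and 820.0 CPM. Pkm (963 and 1098 CPM against 439 and 432 CPM) and Ldha (724 and 877 CPM against 446 and 454 CPM) were likewise higher in the Kcnj8-led cluster, and Pfkp was lower there (21.6 and 20.6 CPM against 56.6 and 62.0 CPM).

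Pgk1 (chrX:106187100-106203699, plus strand) had the smallest fold between the highest and lowest of the 8 compared groups of cells among the 10 genes. The highest level of these was in neuron-like cells (242 CPM in Mr1-/- and 258 CPM in Mr1+/+ cells), followed by astrocyte-like cells (236 and 203 CPM). The lowest levels were in endothelial-like cells (94.2 and 111 CPM) and microglia-like cells (87.0 and 104 CPM), and the top and bottom of the order differed by 2.62-fold over both libraries. All neighbours in the order had overlapping intervals. Between genotypes the ratio was 1.16 (1.02 to 1.33) in astrocyte-like cells, 0.849 (0.730 to 0.987) in endothelial-like cells and 0.838 (0.724 to 0.970) in microglia-like cells, each inside the fold rule given below.

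Pkm, whose muscle and brain form is the main pyruvate kinase of these tissues (chr9:59656368-59679375, plus strand), had 820.0 CPM in Mr1-/- and 680.0 CPM in Mr1+/+ neuron-like cells (ratio 1.21, 1.08 to 1.35), the highest mean over both libraries. Endothelial-like cells (664 and 682 CPM) and mural-like cells (636 and 660.4 CPM) came next, and in the Mr1+/+ library endothelial-like cells were level with neuron-like cells within counting error. Oligodendrocyte-like cells (182 and 189 CPM) and the Anln-led cluster (165 and 167 CPM) were lowest. In neuron-like cells 110 of the 528 Mr1-/- Pkm UMIs lay in 5 of 166 cells, and 58 of the 727 Mr1+/+ ones in 5 of 275. The Pkm ratio in neuron-like cells ran from 1.03 to 1.21 over 13 alternatives, so its size depends on few cells and on the processing. The gene's splice forms cannot be told apart in counts per gene.

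Lactate dehydrogenase differed in make-up from class to class in more steps than hexokinase or aldolase. Ldha (chr7:46841475-46855627, plus strand) was highest in endothelial-like cells, at 724 CPM (2520 UMIs) in Mr1-/- and 800.1 CPM (2695 UMIs) in Mr1+/+ cells, followed by mural-like cells at 554 and 593 CPM and neuron-like cells at 415 CPM in both. It was lowest in oligodendrocyte-like cells (26.9 and 35.2 CPM) and the Anln-led cluster (11.8 and 15.03 CPM). Ldhb (chr6:142490249-142507957, minus strand) was highest in astrocyte-like cells, at 1321 CPM in Mr1-/- and 1232 CPM in Mr1+/+ cells (ratio 1.07, 1.01 to 1.13), then in microglia-like cells at 795 and 778 CPM. It was lowest in endothelial-like cells, at 35.1 and 36.2 CPM.

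The Ldha share of the Ldha and Ldhb UMIs was 95.4% in Mr1-/- and 95.7% in Mr1+/+ endothelial-like cells, 76.2% and 79.0% in mural-like cells and 51.4% and 47.7% in neuron-like cells. It was 26.1% and 26.9% in microglia-like cells, 23.1% and 29.8% in oligodendrocyte-like cells and 18.1% and 19.2% in astrocyte-like cells. The Anln-led cluster had the lowest share, 4.83% and 6.51%, with both its Ldha level lower and its Ldhb level (233 and 216 CPM) higher than in the oligodendrocyte-like class (89.3 and 82.9 CPM). The Mr1-/- share was lower in oligodendrocyte-like cells (difference -6.67 points, -12.7 to -0.376) and mural-like cells (-2.73 points, -5.40 to -0.0821). These intervals treat UMIs as independent and leave out spread between cells. Of the oligodendrocyte-like Ldha UMIs, 8 of 74 in Mr1-/- and 6 of 143 in Mr1+/+ lay in a single cell. After thinning, Ldha was seen in 3.96% and 3.90% of these cells and Ldhb in 10.3% and 10.2%. In the mural-like clusters led by Kcnj8, Tagln and Ifitm1 the intervals spanned no difference (-6.55 to 1.19, -6.90 to 0.976 and -10.3 to 9.01 points). Summed, the subunit UMIs were most frequent in astrocyte-like cells (1613 and 1524 CPM) and least in oligodendrocyte-like cells (116 and 118 CPM). All 10 members together came to 8721 CPM in Mr1-/- and 8668 CPM in Mr1+/+ astrocyte-like cells, the highest of the compared classes. Aldoc alone gave 5319 and 5332 CPM of these sums, so that rank rests on 1 gene. Neuron-like cells, with little Aldoc, came to 3681 and 3538 CPM. Oligodendrocyte-like cells were lowest, at 1275 and 1289.7 CPM.

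**Figure D3:**
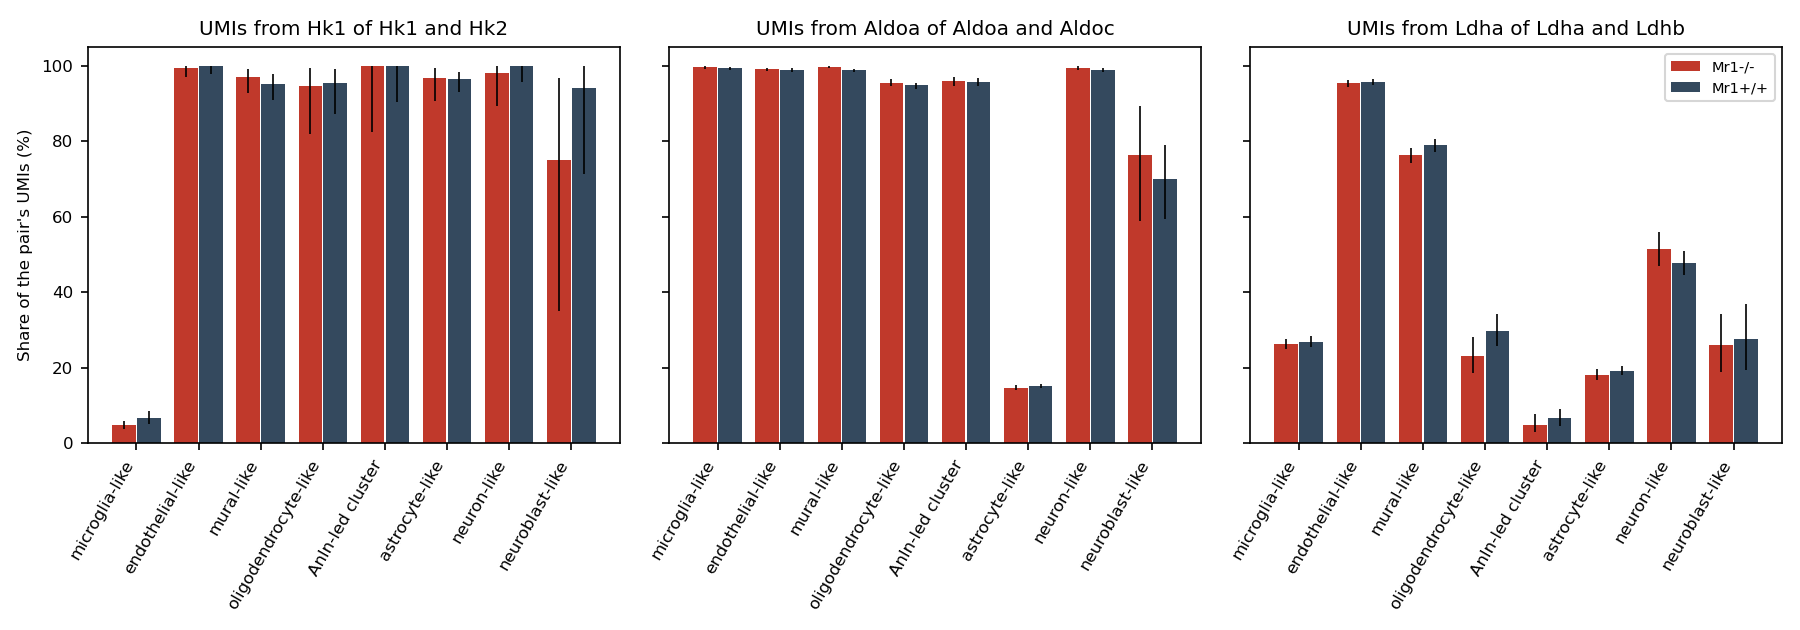
Share of UMIs (%, exact 95% binomial intervals) from Hk1 within Hk1 and Hk2, from Aldoa within Aldoa and Aldoc, and from Ldha within Ldha and Ldhb, in 8 cell classes, with Mr1-/- in red left of Mr1+/+ in blue. Hk1 is at 4.65% and 6.63% in microglia-like cells, Aldoa at 14.7% and 14.99% in astrocyte-like cells, and Ldha runs from 95.4% and 95.7% in endothelial-like cells down to 4.83% and 6.51% in the Anln-led cluster.

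Between the libraries, few members stood apart by size. A gene counts as past the fold rule when it is at least 25% higher in Mr1-/- or at least 20% lower (a ratio of 0.8 or less), among genes with at least 50 UMIs over both libraries and a mean of at least 20 CPM in the class. In microglia-like cells 2 of 7 members were past it, Hk2 and Pfkfb3, both higher in Mr1-/-, where 7.86% of all 6043 genes tested were past it, 2.73% higher and 5.13% lower. The median log2 ratio was -0.02 over those 7 members and -0.03 over all genes tested. In astrocyte-like cells 1 of 9 members was past it, Pfkp, lower in Mr1-/-, where 16.5% of genes tested were past it, 6.82% higher and 9.66% lower. In oligodendrocyte-like cells 1 of 6 was past it, Ldha, lower in Mr1-/- (ratio 0.764, 0.569 to 1.02), where 10.8% of genes tested were past it, 3.92% higher and 6.86% lower. None of 6 members was past it in endothelial-like cells, where 12.9% of genes tested were (6.75% higher and 6.17% lower). None of 7 was in mural-like cells, against 14.6% of genes tested (7.66% higher and 6.91% lower). None of 5 was in the Anln-led cluster, against 16.7% of genes tested (7.11% higher and 9.63% lower), and none of 7 in neuron-like cells, against 29.4% (10.9% higher and 18.5% lower). At so few members, 1 of 6 or 1 of 9 is near these backgrounds.

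Ldha in endothelial-like cells lay inside the fold rule with a ratio of 0.905 (0.857 to 0.956). Within that class the cluster led by Gkn3, Lypd1 and Alpl had 621 CPM in Mr1-/- cells, against 786 CPM in Mr1+/+ cells (ratio 0.790, 0.714 to 0.875), and the larger cluster led by Ctla2a, Hmcn1 and Pglyrp1 had 763 and 802 CPM (ratio 0.950, 0.886 to 1.02). Pkm had ratios of 0.841 (0.752 to 0.942) and 1.02 (0.947 to 1.09) in the same 2 clusters.

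**Figure D4:**
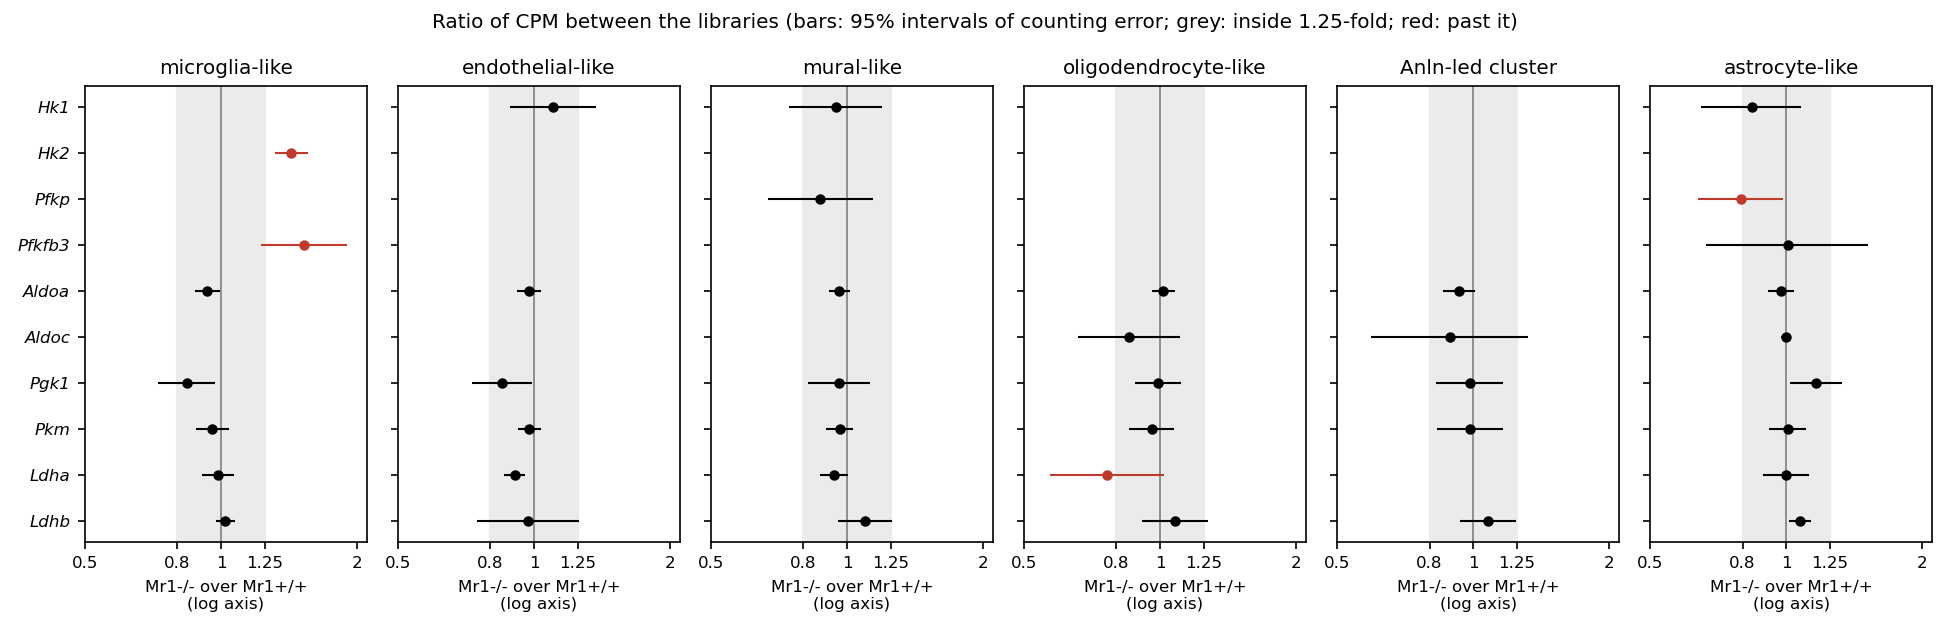
Ratio of CPM, Mr1-/- over Mr1+/+ (log axis), of each gene with enough UMIs in the 6 classes of at least 200 cells per library, with 95% intervals of counting error. Grey marks the range inside the fold rule (0.8 and its inverse), and red marks Hk2 (1.43) and Pfkfb3 (1.52) in microglia-like cells, Ldha (0.764) in oligodendrocyte-like cells and Pfkp (0.795) in astrocyte-like cells.

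In neuroblast-like cells 4 of 5 members were past the fold rule, where 43.7% of all genes tested were (19.4% higher and 24.3% lower). Aldoa was lower in Mr1-/- (ratio 0.423, 0.258 to 0.676), and Pgk1 (1.41, 0.897 to 2.24), Pkm (1.26, 0.977 to 1.64) and Ldhb (1.34, 0.987 to 1.82) were higher. The class has 54 and 66 cells, and the count was 1 of 2 members tested after thinning to 1500 UMIs and 1 of 2 without cells that carried 3 or more markers of another class. All 8 Mr1-/- Aldoc UMIs of the class lay in 1 cell, and all 28 Mr1+/+ Aldoc UMIs in another. The 10 oligodendrocyte markers summed to 92.6 CPM in Mr1-/- and 1926 CPM in Mr1+/+ neuroblast-like cells, with 4 and 0 of them undetected, and their part in these ratios was not tested. At a finer clustering (Leiden resolution 2.0) the Aldoa ratio was 2.18, so its direction depends on which cells the class holds.

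Over whole libraries the ratios differed from those within classes. Over all kept cells Aldoc was at 468 CPM in the Mr1-/- and 782 CPM in the Mr1+/+ library (ratio 0.598, 0.582 to 0.614), although its ratio within astrocyte-like cells was 0.998. Those cells carried 8.45% of UMIs in the Mr1-/- library, against 14.2% in the Mr1+/+ library. With both libraries set to the same mix of classes, the Aldoc ratio was 0.983. Hk2 was at 78.9 CPM in the Mr1-/- and 43.8 CPM in the Mr1+/+ library (ratio 1.80, 1.66 to 1.961), and at the same mix the ratio was 1.42. For Pfkp the ratio was 0.679 as the cells are and 0.796 at the same mix. The Ldha ratio was 1.03 as the cells are and 0.929 at the same mix, and the Ldhb ratio 0.947 and 1.04, so both crossed 1.

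**Figure D5:**
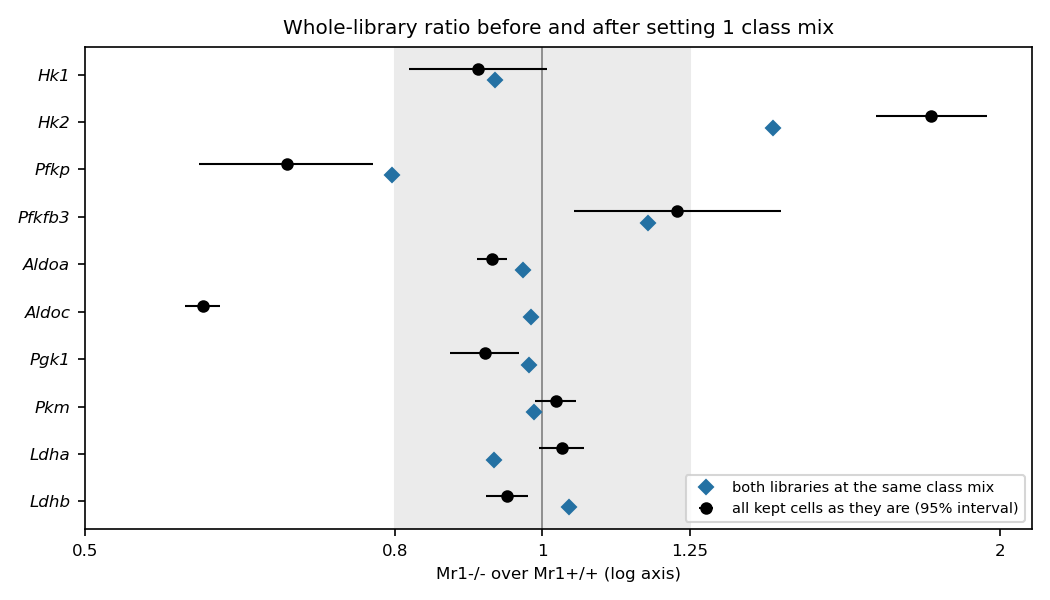
Ratio of each gene over all kept cells, Mr1-/- over Mr1+/+ (log axis), as the cells are (black, 95% interval of counting error) and with both libraries at the same mix of classes by UMIs (blue diamonds), with the range inside the fold rule in grey. Aldoc moves from 0.598 to 0.983 and Hk2 from 1.80 to 1.42.

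The rest of the pathway was read from lists of related genes, each count set against the share of all genes tested in that class and direction. Of the 17 other glycolytic enzymes, 6 to 9 could be tested in each compared class outside neuroblast-like cells. None was lower past the fold rule, and Gapdh alone was higher, as 1 of 9 genes tested in astrocyte-like cells (6.82% of all genes were higher), 1 of 9 in neuron-like cells (10.9%) and 1 of 6 in the Anln-led cluster (7.11%). Gapdh, the enzyme between aldolase and phosphoglycerate kinase, was at 5283 CPM in Mr1-/- and 4217 CPM in Mr1+/+ astrocyte-like cells (ratio 1.253, 1.22 to 1.29). It was also higher in Mr1-/- microglia-like cells (1864 and 1546 CPM, ratio 1.21, 1.165 to 1.248), endothelial-like cells (1077 and 928 CPM, ratio 1.16), mural-like cells (2119 and 1807 CPM, ratio 1.17), oligodendrocyte-like cells (1813 and 1461 CPM, ratio 1.24), the Anln-led cluster (2609 and 2084 CPM, ratio 1.252) and neuron-like cells (3780.2 and 3018 CPM, ratio 1.252). Gapdh has many processed pseudogenes, and no source used here says how shared reads were counted.

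Of the 11 glucose and lactate transporter genes, 4 were tested in endothelial-like cells, and 1 was lower past the fold rule, where 6.17% of all genes were. It was Slc2a1, the GLUT1 glucose transporter of the blood-brain barrier, at 1406 CPM (4893 UMIs) in Mr1-/- and 2119 CPM (7137 UMIs) in Mr1+/+ cells (ratio 0.664, 0.640 to 0.688). Bsg, which encodes the partner protein of the lactate transporters, was at 39463 and 36678 CPM there (ratio 1.08, 1.07 to 1.08). Slc2a1 was also the 1 of 4 lower in astrocyte-like cells (ratio 0.781, 0.639 to 0.952, against 9.66% of all genes lower). In oligodendrocyte-like cells 1 of 4 was lower, Slc16a1, the lactate transporter MCT1 (ratio 0.781, 0.5796 to 1.04, against 6.86%), and in the Anln-led cluster 1 of 4 was higher, Slc2a8 (ratio 1.32, 0.866 to 2.01, against 7.11%). None of 6 was past the rule in microglia-like cells, none of 3 in mural-like and none of 1 in neuron-like cells. The 6 included Slc2a5, a fructose transporter of microglia, at 331 and 321 CPM (ratio 1.03, 0.952 to 1.11), in the class where Hk2 differed.

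Of the 14 hypoxia-responsive genes, 11 were tested in mural-like cells, with 4 lower and 0 higher past the fold rule, where 6.91% of all genes were lower. The median log2 ratio of the 11 was -0.29, against 0.01 over all genes tested. In endothelial-like cells 3 of 11 were lower and 0 higher, where 6.17% of all genes were lower, with a median of -0.17 against 0.02. They were Ddit4, an inhibitor of mTORC1 signalling (ratio 0.491), P4ha1, a collagen prolyl hydroxylase subunit (0.623, 0.4996 to 0.774), and Bnip3, a mitophagy receptor (0.774). In microglia-like cells 2 of 5 were lower and 0 higher, where 5.13% of all genes were lower, with a median of -0.19 against -0.03. In oligodendrocyte-like cells 2 of 6 were lower and 0 higher (6.86% of all genes lower), with a median of -0.18 against -0.02. The Anln-led cluster had 1 higher and 1 lower of 6 (7.11% and 9.63% of all genes), with a median of -0.01 against -0.01. None of 7 was past the rule in astrocyte-like cells and none of 7 in neuron-like cells. Hk2 and Pfkfb3 were higher in Mr1-/- microglia-like cells, and Ddit4 (62.7 against 169 CPM) and P4ha1 (269 against 342 CPM) were lower there. Ldha and Pgk1, also known targets of hypoxia-inducible factors, had ratios of 0.984 and 0.838 in the same cells. Any part of hypoxia-inducible factors in these ratios was not tested.

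Among the glycolytic regulators Txnip, an inhibitor of glucose uptake, was lower in Mr1-/- in 3 classes. It was 1 of 1 regulator tested in endothelial-like cells (6.17% of all genes lower), 1 of 2 in mural-like cells (6.91%) and 1 of 4 in astrocyte-like cells (9.66%), where it was at 35.5 against 59.8 CPM (ratio 0.593, 0.427 to 0.811). In neuron-like cells 2 of 2 regulators were higher, where 10.9% of all genes were. They were Pdk2, a pyruvate dehydrogenase kinase (ratio 1.42, 0.9196 to 2.19), and Pdp1, a pyruvate dehydrogenase phosphatase (1.28, 0.766 to 2.11), and both intervals hold 1. In the Anln-led cluster 1 of 4 was lower, the kinase gene Pdk4 (ratio 0.748, 0.449 to 1.22, against 9.63%), and none of 3 was past the rule in microglia-like and none of 3 in oligodendrocyte-like cells.

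The genes of pyruvate entry into mitochondria gave 1 of 7 lower in microglia-like cells, where 5.13% of all genes were lower, and 2 of 7 lower in oligodendrocyte-like cells (6.86%). None of 6 was past the rule in endothelial-like, 6 in mural-like, 7 in the Anln-led, 8 in astrocyte-like and 6 in neuron-like cells. The glycogen and pentose branch genes gave 1 of 9 lower in microglia-like cells (5.13% of all genes lower), 1 of 7 higher in endothelial-like cells (6.75% higher), 1 of 8 higher in mural-like cells (7.66% higher) and 1 of 10 lower in astrocyte-like cells (9.66% lower). They gave 1 of 6 higher in the Anln-led cluster (7.11% higher), 1 higher and 2 lower of 7 in neuron-like cells (10.9% and 18.5%) and 0 of 4 in oligodendrocyte-like cells. With so few genes, 1 call in a list is near these shares. In neuroblast-like cells at most 5 genes of a list were tested, and each list but the regulators had calls.

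Genes with the pattern most like each member were found over the 16 class levels of both libraries (Pearson r of log2 CPM + 10, as a description, among 7947 genes). The points share libraries and cells. For Hk2 they were Tbxas1 (r = 0.997), Batf3 and Hvcn1, and the closest gene of the lists was Slc2a5 (0.988). For Aldoc they were Slc27a1 (0.983), 3110082J24Rik and Gpr37l1. Ldha was nearest to Mfhas1 (0.970), Pfkl (0.968) and Lypla1, and Pkm to Tsen15 (0.954), Rheb and Mmd, with Ldha the closest listed gene (0.882). Pfkp was nearest to March6 (0.969), with Pfkm as the closest listed gene (0.928), and Hk1 to Golgb1 (0.951), with Pfkp (0.906). For Pfkfb3 the nearest was Derl1 (0.935), for Aldoa B3gat3 (0.923), for Pgk1 9530077C05Rik (0.948) and for Ldhb Hivep3 (0.919).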

How the data were processed

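The deposited values are raw UMI counts per gene and barcode, with no normalization by the authors, per the file headers. The matrix headers name Cell Ranger 3.1.0, while the submitters' processing notes name Cell Ranger 5.1.0, STAR and mm10. Gene positions are from GENCODE M21 (31011 of 31053 gene IDs found). Cells with at least 300 genes and at most 10% mitochondrial UMIs were kept (5278 Mr1-/-, 6327 Mr1+/+). Scrublet (scanpy 1.11.5, expected rate 0.05) marked 171 (3.24%) and 335 (5.29%) as doublets, which were removed, leaving 5107 and 5992. The 2000 most variable genes without the listed metabolic genes, 30 components and 15 neighbours gave 24 Leiden clusters (resolution 1, seed 7), without integration. A cluster needed 3 detected markers, and 4 stayed unnamed. Those led by Anln and Plvap had more markers of another class than of their own among their 10 leading genes. Those led by 8430408G22Rik and Cnmd had no marker of their own there and a median depth below the library median divided by 3. Groups below 50 cells per library were not compared.

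UMIs were summed per class and library and scaled to CPM. Intervals are 95% (exact Poisson, Clopper-Pearson, conditional binomial for ratios, Newcombe for differences of shares), and a count of 0 allows up to 3 counts. The fold rule (at least 25% higher or 20% lower, with at least 50 UMIs and 20 CPM) makes no test. The calculation of the ratio and its interval was checked on simulated independent Poisson counts per gene. Those counts hold no cells, so the check does not cover spread between cells or libraries. Members, markers and lists were chosen with earlier results of these data known. All members are named. Of other lists, up to 3 genes of largest ratio, 3 of smallest and 4 of most UMIs per class could be named, and Bnip3 and P4ha1 in microglia-like cells, Txnip outside astrocyte-like cells, Slc2a5, Slc16a1, Pdk4, Slc2a1 in astrocyte-like cells and Pfkm were named after their values were seen. Alternatives changed the clustering, the cell filters, depth, weighting, scaling and the fold rule.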

Additional observations from a re-analysis of the deposited data

Results flagged for a closer look

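Pgk1 went in opposite directions in 2 classes. Its ratio, Mr1-/- over Mr1+/+, was 1.16 in astrocyte-like cells (236 and 203 CPM, 1.02 to 1.33) and 0.838 in microglia-like cells (87.0 and 104 CPM, 0.724 to 0.970), and both intervals of counting error exclude 1. The difference between these classes was not tested, since each genotype has 1 library. Across 13 alternatives the ratio ran from 1.11 to 1.32 in astrocyte-like cells and from 0.681 to 0.855 in microglia-like cells.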

How the results depend on the processing

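The Hk2 ratio in microglia-like cells stayed between 1.42 and 1.54 over 13 alternatives, and the Aldoc ratio in astrocyte-like cells between 0.987 and 1.01. Of 167 recomputed values of member ratios whose reported interval excludes 1, 2 lay on the other side of 1: Aldoa in neuroblast-like cells, 2.18 at Leiden resolution 2.0 and 2.16 with up to 20% mitochondrial UMIs. Where the interval holds 1, 59 of 757 values did, among them Pfkp in oligodendrocyte-like cells (0.555 to 3.16). Counts of members past the fold under the alternatives are given without the share of all genes past it under the same setting. They therefore cannot be set against a background and show only how the counts moved. The number of members past the fold became 1 in mural-like and 1 in neuron-like cells with at most 5% mitochondrial UMIs, 1 in neuron-like cells with doublets kept, and 0 in oligodendrocyte-like and 1 in neuroblast-like cells after thinning. With each cell weighing the same it was 0 in oligodendrocyte-like, 0 in astrocyte-like and 1 in neuron-like cells. Pfkfb3 in microglia-like cells also fell inside the fold rule under that weighting, at a ratio of 1.09. With a fold of 1.5 it was 1 in microglia-like, 0 in oligodendrocyte-like, 0 in astrocyte-like and 1 in neuroblast-like cells. Without a minimum CPM it was 2 in oligodendrocyte-like cells and 2 in the Anln-led cluster, and without cells carrying markers of another class 1 in neuroblast-like cells. The cause was not tested. The span between the highest and the lowest large class (named classes of at least 200 cells per library, without the Anln-led cluster) was 94.3 points for the Hk1 share, 84.6 for the Aldoa share (83.9 with doublets kept) and 76.7 for the Ldha share (79.4 with unnamed clusters counted in the class of their markers, an alternative chosen after seeing the data). The Pkm ratio in neuron-like cells was 1.04 at Leiden resolution 2.0, with up to 20% mitochondrial UMIs and in cells of at least 1500 UMIs, and 1.03 after thinning. No paired analysis was possible because each genotype has 1 library. Differences between mice, dissections and library preparations cannot be told apart from genotype, and counts of at most 8 UMIs per library for Hk2 outside microglia-like cells, and of at most 6 for Pfkfb3 in mural-like, neuron-like and neuroblast-like cells, leave their ratios there with wide intervals.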
